A study of Mus musculus with 96 samples.

Results

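The 10 genes described here encode chaperones, folding enzymes and a degradation factor of the endoplasmic reticulum (ER), together with the transcription factor Xbp1. They are Hspa5, Hsp90b1, Calr, Dnajb9, Sdf2l1, Pdia4, Pdia6, Creld2, Herpud1 and Xbp1, taken by name from a given list, and all 10 were found among the 56748 genes of the deposited count table. The study measured messenger RNA in liver, muscle and cerebral cortex of mice with food at all hours (ad libitum, AL) or on intermittent fasting (IF). The male mice, numbered 1 to 16 with 8 in each diet group, were C57BL/6 animals that started their diet at 6 weeks of age and kept it for 4 months. The male IF group went without food for 16 h of each day, and the male tissues were collected in the morning, when that group was at the end of its fast. For the female mice, numbered 25 to 40 with 8 in each diet group, the labels give the sex, the tissue and the diet, and their strain, age, fasting hours and time of collection are not known here. Sex therefore cannot be told apart from the cohort. No transgene and no treatment other than diet is named for any group.

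Each mouse gave 1 library from each of the 3 tissues, which makes 96 libraries. Of these, 95 were used, and their totals ran from 26097314 to 49838004 counted reads. The library labelled cortex of male AL mouse 1 goes against its sex label. It held 10219 counts of Xist, the transcript of the inactive X chromosome, and 0 counts of each of the Y-linked genes Ddx3y, Kdm5d, Uty and Eif2s3y. The other 47 male libraries held 0 to 25 counts of Xist and 2166 to 7206 counts of these Y-linked genes in sum, and the 48 female libraries held 1407 to 56808 counts of Xist and 0 to 3 Y-linked counts. That library is left out of every value below except where it is named, so the male AL cortex group has 7 libraries.

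The tissue labels were checked against 5 markers each. The hepatocyte markers Alb, Apoa1, Ttr, Serpinc1 and Cps1 summed to between 40167 and 97133 counts per 1000000 counted reads (CPM) in every liver, with Alb the most abundant. The muscle markers Acta1, Ckm, Myh4, Mb and Tnnt3 summed to between 104687 and 137247 CPM in every muscle. Acta1 was the most abundant in 29 of the 32 muscles and Myh4 in those of male IF mice 14 and 16 and female AL mouse 32. In every cortex the neuronal markers Snap25, Syt1, Rbfox3, Slc17a7 and Camk2a summed to between 7253 and 9700.3 CPM. In each tissue the sum of its own markers was the highest. Of the markers of other tissues, Acta1 stood at 13.4 to 28.2 CPM in the cortices and Syt1 at up to 14.6 CPM in the livers. Higher still were Camk2a in muscle, which brought the neuronal sum there to at most 474 CPM, and Ttr in cortex, which brought the hepatocyte sum to 3104 CPM in male AL mouse 4 and 565 CPM in male AL mouse 2, to 3367 CPM in male IF mouse 11 and 1553 CPM in male IF mouse 14, and to 4271 CPM in female IF mouse 36 and 1545 CPM in female IF mouse 34. In every other cortex the sum was at most 119.6 CPM. Alb, Apoa1, Serpinc1 and Cps1 were each under 1 CPM in every cortex, so that the high sums are those of Ttr.

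Secreted and membrane proteins fold in the ER, and hepatocytes, which make most plasma proteins, carry a heavy load of them. When unfolded protein builds up, the sensors IRE1, PERK and ATF6 start the unfolded protein response (UPR), which raises the genes of chaperones and of ER-associated degradation. IRE1 does so by splicing Xbp1 mRNA into the form that encodes the active factor. Counts per gene do not separate spliced from unspliced Xbp1 mRNA, so splicing was not analysed here.

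Levels are given in CPM, from raw totals. Differences between diets are log2 fold changes of IF against AL, fitted with edgeR after a scaling for library composition and given ± their standard error (SE), so a value of -1 is a halving. A gene is called where its p, adjusted over all genes tested in that comparison, is under 0.05. All 10 genes passed the filter on low counts in every comparison.

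In male livers most of the folding genes among the 10 were lower under IF, while Herpud1, which serves degradation, was higher. Herpud1 does not stand for degradation as a whole. Of the other degradation genes called in these livers, given below, more fell than rose. Of the 10 genes, 9 were called, where 44.6% of the 16204 genes tested were called. In the downward direction 8 of the 10 were called against 21.1% of all genes, and in the upward direction 1 of the 10 against 23.5%. The CPM ranges of the diet groups did not overlap for 4 of the 10 genes (Sdf2l1, Calr, Pdia4 and Herpud1), as was so for 14.6% of all genes. The median log2 fold change of the 10 genes was -0.86, and that of all genes tested was 0.06. In whole tissue, fewer cells of a type and less RNA per cell cannot be told apart.

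The general chaperones come first. Hspa5 (ENSMUSG00000026864, BiP, the Hsp70 of the ER, which binds unfolded chains and holds the sensors inactive; chr2:34661982-34667559 in GRCm39) ran from 219.6 CPM in the lowest male AL liver through a median of 429 to 709 in the highest, against 205, 248 and 284 CPM in male IF livers. All 8 IF livers lay below the AL median, but the groups overlapped, since the AL livers of mice 4, 6 and 8 fell inside the IF range. Hspa5 fell by 0.79 ± 0.17 on the log2 scale (adjusted p = 0.000462), to 57.7% of its AL level. Hsp90b1 (ENSMUSG00000020048, GRP94, the Hsp90 of the ER; chr10:86526073-86541373) had a lowest, median and highest level of 369, 502 and 729.7 CPM in male AL livers and of 262, 280.0 and 383 CPM in male IF livers. Only AL mouse 4 lay inside the IF range, and 7 of 8 IF livers were below the lowest AL liver. Hsp90b1 fell by 0.92 ± 0.14 (adjusted p = 1.06e-05).

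Calr (ENSMUSG00000003814, calreticulin, a lectin chaperone of glycoproteins that also stores calcium; chr8:85568479-85573563) stood at 459 CPM in the lowest, 532 in the median and 643 in the highest male AL liver, and at 148, 195 and 254 CPM in male IF livers. Every AL liver was far above every IF liver, with a gap about as wide as the AL range itself. Calr fell by 1.498 ± 0.13 (adjusted p = 1.65e-09), to 35.4% of its AL level. Of the 10 genes, Calr was the one with the highest level per length in male AL livers.

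The co-chaperones of Hspa5 parted ways. Sdf2l1 (ENSMUSG00000022769, a small ER protein that works with the J-protein partners of Hspa5; chr16:16948002-16950247) ran from 16.1 CPM through a median of 31.4 to 86.4 CPM in male AL livers, and from 2.82 through 5.08 to 5.47 CPM in male IF livers. Its highest IF liver was far below its lowest AL liver, and the IF livers were packed closely while the AL livers were spread widely. Sdf2l1 fell by 3.17 ± 0.30 (adjusted p = 2.47e-07), to 11.1% of its AL level, and 56 of the 16204 genes tested had a lower log2 fold change. Dnajb9 (ENSMUSG00000014905, ERdj4, a J-domain co-chaperone that hands clients and IRE1 to Hspa5; chr12:44252342-44257109) had 15.2, 28.5 and 78.7 CPM as its lowest, median and highest level in male AL livers and 21.5, 28.7 and 47.5 CPM in male IF livers. The medians nearly coincide and the IF range lies inside the AL range, with 4 of 8 IF livers on either side of the AL median. Dnajb9 was the only one of the 10 that was not called, at -0.29 ± 0.26 (95% confidence interval -0.84 to 0.26, adjusted p = 0.391).

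Of the enzymes that form and rearrange disulphide bonds, Pdia4 (ENSMUSG00000025823, ERp72; chr6:47773075-47790364) had 101, 132 and 196 CPM as its lowest, median and highest level in male AL livers and 34.9, 41.1 and 53.8 CPM in male IF livers. The groups did not overlap, and the lowest AL liver was well above the highest IF liver. Pdia4 fell by 1.79 ± 0.13 (adjusted p = 1.14e-10), to 28.96% of its AL level. Pdia6 (ENSMUSG00000020571, P5, another protein disulphide isomerase; chr12:17316546-17334771) had 84.4, 121 and 225 CPM in male AL livers and 71.0, 79.5 and 98.1 CPM in male IF livers. Here the groups overlapped, with 5 AL livers above every IF liver and 3 inside the IF range. Pdia6 fell by 0.75 ± 0.15 (adjusted p = 0.000311). Creld2 (ENSMUSG00000023272, a cysteine-rich, EGF-like protein of the ER with disulphide isomerase activity; chr15:88703849-88710886) ran from 24.3 through 45.9 to 153 CPM in male AL livers and from 26.99 through 30.1 to 31.2 CPM in male IF livers. The AL livers were widely spread and the IF livers almost equal, so that AL mice 4 and 6 were at or below the IF livers although all 8 IF livers were below the AL median. Creld2 fell by 1.20 ± 0.30 (adjusted p = 0.00455).

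Herpud1 (ENSMUSG00000031770, a membrane protein that helps to assemble the HRD1 complex of ER-associated degradation; chr8:95113066-95122005) moved the other way. It ran from 127 through 176 to 365 CPM in male AL livers and from 428 through 572 to 765 CPM in male IF livers. All 8 IF livers were above all 8 AL livers, and AL mouse 2 stood apart from the other AL livers, of which the next highest had 194 CPM. Herpud1 rose by 1.61 ± 0.17 (adjusted p = 6.21e-08), a 3.06-fold level. Xbp1 (ENSMUSG00000020484, the transcription factor of the IRE1 branch; chr11:5470659-5475893) ran from 99.4 through 179.8 to 278 CPM in male AL livers and from 99.5 through 119.9 to 134 CPM in male IF livers. The highest 6 AL livers were above every IF liver, but AL mouse 4 was inside the IF range and AL mouse 6 just below it. Xbp1 fell by 0.74 ± 0.15 (adjusted p = 0.00026).

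**Figure D1:**
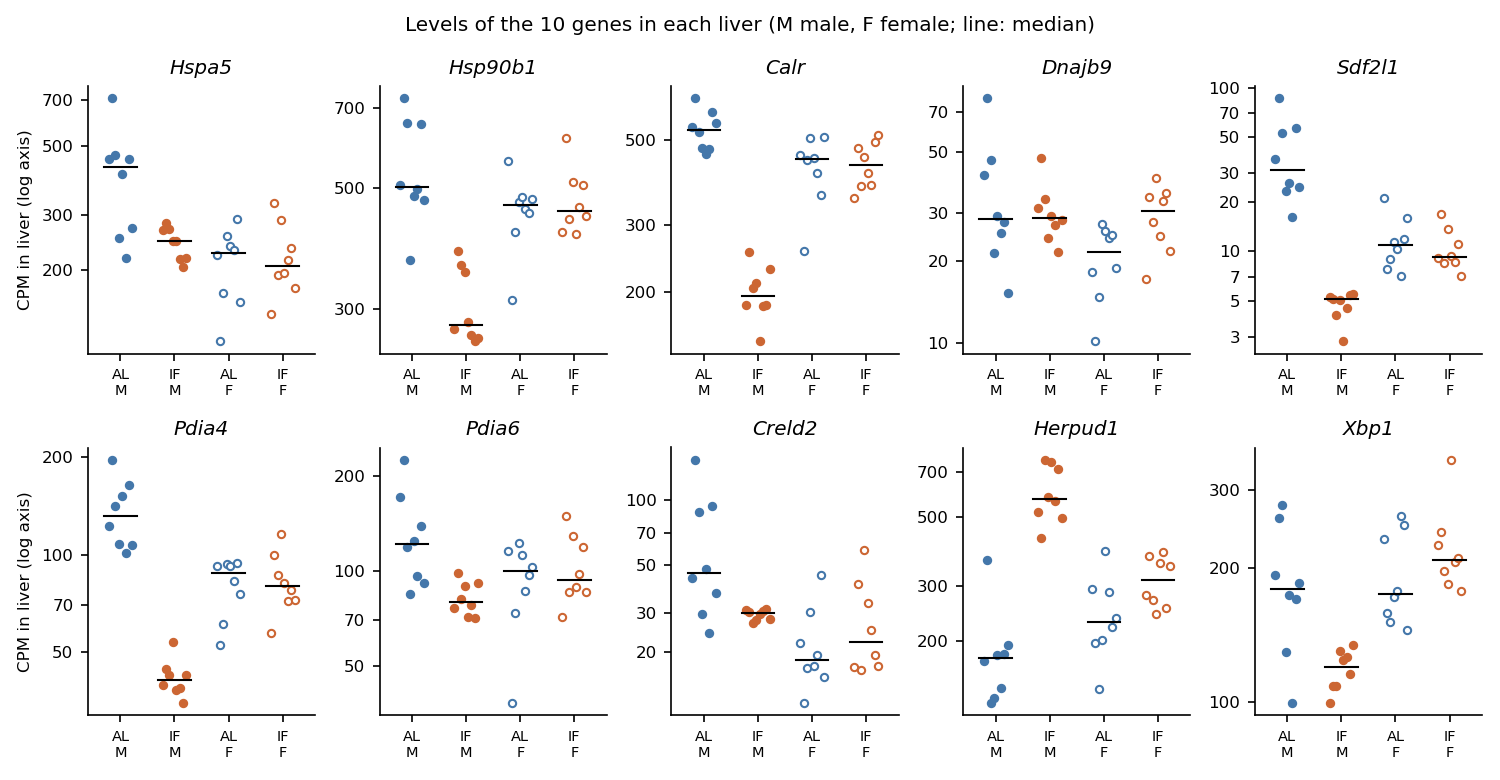
Level of each of the 10 genes in every liver library, in CPM on a log axis, for male (filled) and female (open) mice under AL (blue) and IF (orange), with a line at each group's median of 8 libraries. In males the IF points of Calr, Pdia4 and Sdf2l1 lie wholly below and those of Herpud1 wholly above the AL points, while in females the diet groups of all 10 genes overlap.

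A few libraries carry much of the spread. AL mouse 2 had the highest level of 9 of the 10 genes among the male AL livers (Xbp1 was highest in mouse 3), and AL mouse 6 the lowest level of 5. With mouse 2 left out, an alternative chosen after the data were seen, 9 of the 10 genes were again called, against 43.1% of all genes, and Dnajb9 moved from -0.29 to -0.06, Creld2 from -1.20 to -0.94 and Herpud1 from 1.61 to 1.78. Erythrocyte markers (Hba-a1, Hba-a2, Hbb-bs, Hbb-bt and Alas2) moved with diet in the male livers. Of these 5 genes, 3 were called higher in IF, and the sum of the 5 ran from 362 to 956 CPM in AL and from 667 to 6879 CPM in IF. In IF the median was 907 CPM for Hbb-bs and 880 CPM for Hba-a1, while the mean was higher for Hba-a1 (1184 against 1084 CPM). Without the IF livers with the highest sums (mice 9 and 10, also chosen after the data were seen), 9 of the 10 genes were called, against 42.4% of all genes, with Calr at -1.55, Sdf2l1 at -3.22 and Herpud1 at 1.71.

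Markers of other cells and the clock genes were read in the same livers. Of the hepatocyte markers, 1 of 5 was called (Apoa1, at -0.48 ± 0.13), and Alb stood at -0.29 ± 0.14 (adjusted p = 0.113). Of the macrophage markers (Adgre1, Cd68, Clec4f, Cd5l and Csf1r) 1 of 5 was called, Clec4f at 0.41 ± 0.16, and their sum had a median of 163 CPM in AL and 209.9 CPM in IF. Of the plasma cell markers (Jchain, Mzb1, Tnfrsf17, Igkc and Ighm), which mark a cell type that is itself rich in ER chaperones, 0 of 3 tested were called by edgeR and 1 had an unadjusted p under 0.05. Their sum had a median of 48.1 CPM in AL and 28.2 CPM in IF. Tnfrsf17 was at 0 counts in every IF liver and had a median of 0 CPM in AL as well. Of the adipocyte markers (Adipoq, Plin1, Cidec, Lep and Fabp4) 0 of 2 tested were called by edgeR and 1 had an unadjusted p under 0.05. Of the neuronal markers 1 of 2 tested was called (Syt1, at 0.61 ± 0.18). All 6 clock genes read were called, 3 lower (Npas2 at -6.22 ± 0.67, Nr1d1 at -1.96 ± 0.26 and Arntl at -1.91 ± 0.16) and 3 higher (Per1 at 4.53 ± 0.29, Dbp at 1.51 ± 0.46 and Per2 at 1.34 ± 0.23). By the methods of the study the male mice were flushed with cold saline before the tissues were frozen. The part of blood, of clock phase or of these cell types in the differences of the 10 genes was not tested.

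In female livers a difference between diets was not shown for the same genes. By edgeR 0 of the 10 genes were called, as were 0 of 15938 genes tested (0%). At an unadjusted p under 0.05 there were 2 of the 10, against 5.77% of all genes, and by DESeq2 0 of the 10, against 0.0138% of all genes. No gene of the 10 had diet groups that did not overlap, which 0.0188% of all genes had. The 2 with a small unadjusted p were Dnajb9, whose lowest, median and highest level was 10.2, 21.6 and 27.3 CPM in AL and 17.3, 30.6 and 40.2 CPM in IF, and Herpud1, with 141, 229.9 and 388 CPM in AL and 244, 315 and 387 CPM in IF. In Dnajb9 5 of 8 IF livers were above every AL liver, and in Herpud1 all 8 IF livers were above the AL median although AL mouse 29 was the highest of all. Dnajb9 stood at 0.56 ± 0.19 (95% interval 0.17 to 0.95, adjusted p = 0.785) and Herpud1 at 0.39 ± 0.16 (0.05 to 0.74, adjusted p = 0.832). Log2 fold changes of the 10 genes ran from -0.14 to 0.56 with a median of 0.15, and their intervals together spanned -0.58 to 1.03.

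Sdf2l1 and Calr show how the cohorts differed in liver. Female Sdf2l1 had 7.10, 10.9 and 21.2 CPM as its lowest, median and highest level in AL and 7.03, 9.20 and 16.9 CPM in IF, and female Calr had 255, 446 and 509 CPM in AL and 353, 430.3 and 516 CPM in IF. The female diet groups of both genes overlap widely, and every female liver lay above every male IF liver for both, though for Calr the lowest female AL liver was barely above the highest male IF liver. The test of the difference itself, the female minus the male response to diet, called 9 of the 10 genes in liver, where 23.7% of 17658 genes were called. It gave 3.06 ± 0.37 for Sdf2l1 (adjusted p = 3.52e-07), 1.90 ± 0.19 for Pdia4, 1.59 ± 0.20 for Calr and -1.19 ± 0.24 for Herpud1. Dnajb9 was the gene not called, at 0.88 ± 0.34 (95% interval 0.19 to 1.57, adjusted p = 0.0564).

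Clock genes also differed between the cohorts. Median Dbp in AL livers was 6.12 CPM in males and 226 CPM in females, and median Arntl was 20.5 CPM in males and 1.05 CPM in females. Whether sex, cohort or hour of collection lies behind the differences of the 10 genes cannot be told apart here.

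In male muscle genes were called in both directions. Of the 10 genes, 5 were called, where 23.0% of 15025 genes were called. Lower in IF were 2 of the 10 (Sdf2l1 and Calr) against 11.6% of all genes, and higher were 3 (Xbp1, Dnajb9 and Herpud1) against 11.5%. These shares depend on the composition scaling. With library totals in its place, most of all genes called in male muscle were higher in IF. Diet groups of 2 of the 10 (Sdf2l1 and Herpud1) did not overlap, against 4.17% of all genes. The median log2 fold change of the 10 was -0.10, and that of all genes tested was 0.01.

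Sdf2l1 was scarce in male muscle, with 3.47, 4.52 and 5.80 CPM as its lowest, median and highest level in AL and 1.74, 2.65 and 3.08 CPM in IF. All 8 IF muscles were below all 8 AL muscles. Sdf2l1 fell by 0.88 ± 0.14 (adjusted p = 0.000131), to 54.4% of its AL level. Calr had 134, 151 and 165 CPM in AL and 122, 135 and 156 CPM in IF. These groups overlapped, with 7 of 8 IF muscles below the AL median. Calr fell by 0.21 ± 0.05 (adjusted p = 0.00484), a call that is lost with library totals in place of the composition scaling (-0.14, adjusted p = 0.0693).

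Herpud1 had 119.6, 131 and 157 CPM as its lowest, median and highest level in male AL muscles and 162, 181 and 201 CPM in male IF muscles. Every IF muscle was above every AL muscle. Herpud1 rose by 0.35 ± 0.06 (adjusted p = 0.000441). Dnajb9 had 21.3, 27.5 and 31.9 CPM in AL and 30.8, 35.3 and 40.9 CPM in IF, so that 7 of 8 IF muscles were above every AL muscle. Dnajb9 rose by 0.38 ± 0.08 (adjusted p = 0.00189). Xbp1 had 44.3, 46.9 and 57.9 CPM in AL and 54.6, 59.5 and 68.1 CPM in IF, with AL mouse 8 alone inside the IF range. Xbp1 rose by 0.23 ± 0.06 (adjusted p = 0.00623), which is the opposite direction to its fall in male liver.

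The other 5 genes were not called in male muscle. Hspa5 (medians 130.4 CPM in AL and 128 CPM in IF), Hsp90b1 (57.3 and 55.9 CPM), Pdia6 (38.3 and 41.1 CPM), Pdia4 (8.90 and 7.86 CPM) and Creld2 (7.70 and 6.95 CPM) had log2 fold changes between -0.20 and -0.03, with overlapping groups. Adipocyte markers moved with diet in these muscles. Of the 5, 4 were called higher in IF, among them Fabp4 at 1.81 ± 0.33 and Cidec at 2.52 ± 0.64, and their sum ran from 143 to 515 CPM in AL and from 332 to 2489 CPM in IF, with Fabp4 the most abundant. Without the IF muscles with the highest sums (mice 10 and 12, chosen after the data were seen) 5 of the 10 genes were called, against 23.7% of all genes, with Sdf2l1 at -0.94, Dnajb9 at 0.45 and Herpud1 at 0.39. Of the muscle markers 2 of 5 were called lower (Ckm at -0.19 ± 0.06 and Mb at -0.90 ± 0.25). Of the plasma cell markers 1 of 4 tested (Mzb1) and of the macrophage markers 1 of 3 tested (Csf1r) were called lower. Of the clock genes 5 of 6 were called, with Nr1d1 at -2.47 ± 0.12. The part of these in the differences of the 10 genes was not tested.

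In female muscle 0 of the 10 genes were called by edgeR, where 1 of 15308 genes was called (0.00653%). At an unadjusted p under 0.05 there were 0 of the 10, against 10.7% of all genes, and by DESeq2 0 of the 10, against 0.569% of all genes. Diet groups of 0 of the 10 did not overlap, against 0.0915% of all genes. The genes called in male muscle had female medians of 3.70 and 3.28 CPM (Sdf2l1, AL and IF), 158 and 145 CPM (Calr), 145 and 156 CPM (Herpud1), 38.3 and 38.3 CPM (Dnajb9) and 96.1 and 104 CPM (Xbp1), with overlapping groups in each. Their log2 fold changes were between -0.05 and 0.15. The female minus male difference in response called 2 of the 10 genes, where 14.2% of 16346 genes were called. These were Sdf2l1 at 0.85 ± 0.21 (adjusted p = 0.00554) and Calr at 0.22 ± 0.08 (adjusted p = 0.0449). For Herpud1 (-0.21 ± 0.10, adjusted p = 0.145), Dnajb9 (-0.30 ± 0.14, adjusted p = 0.147) and Xbp1 (-0.06 ± 0.13, adjusted p = 0.817) a difference between the cohorts was not shown.

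**Figure D2:**
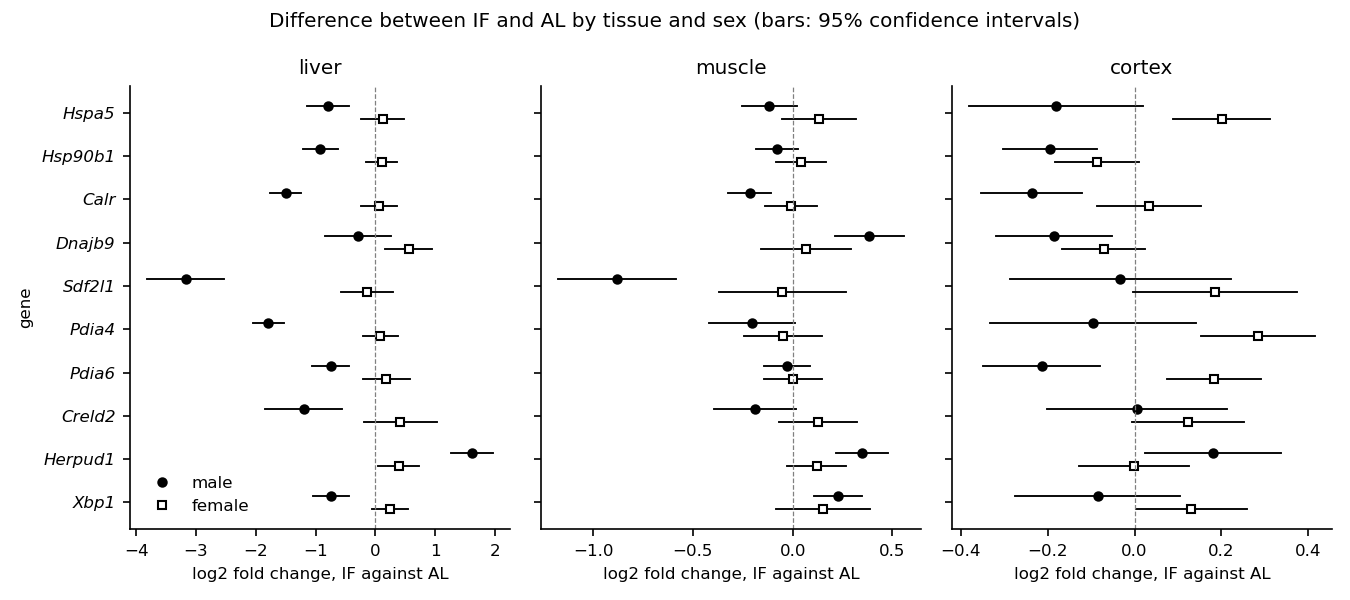
Log2 fold change of IF against AL for each of the 10 genes in liver, muscle and cortex, for male (filled circles) and female (open squares) mice, with 95% confidence intervals as bars and a different horizontal scale in each panel. Male liver values run from -3.17 (Sdf2l1) to 1.61 (Herpud1), while the cortex values of both sexes stay between -0.24 and 0.28.

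In male cortex 3 of the 10 genes were called, all lower in IF, where 7.21% of 18462 genes were called. That is 3 of 10 against 3.43% of all genes for the downward direction and 0 of 10 against 3.79% for the upward direction. No gene of the 10 had diet groups that did not overlap, which 1.01% of all genes had. By DESeq2 3 of the 10 were called as well, against 2187 of 18253 genes tested, and 5 had an unadjusted p under 0.05, against 23.8% of all genes. The median log2 fold change of the 10 was -0.14, and that of all genes tested was 0.00.

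Hsp90b1 had 188, 195 and 216 CPM as its lowest, median and highest level in male AL cortices (n = 7) and 157, 175 and 189 CPM in male IF cortices (n = 8). All but 1 of the IF cortices, that of mouse 16, were below the lowest AL cortex. Hsp90b1 fell by 0.20 ± 0.05 (adjusted p = 0.0293). Calr had 436, 471 and 510.5 CPM in AL and 368, 390.3 and 440.2 CPM in IF, again with 7 of 8 IF cortices below every AL cortex, and fell by 0.24 ± 0.06 (adjusted p = 0.017). Pdia6 had 119, 131 and 154 CPM in AL and 99.1, 113 and 126 CPM in IF, with all 8 IF cortices below the AL median and 6 below the lowest AL cortex. Pdia6 fell by 0.21 ± 0.06 (adjusted p = 0.0489).

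These 3 calls depend on the libraries, the filter and the model. With the replicate number as a block 0 of the 10 were called by edgeR, against 2.07% of all genes. The adjusted p was then 0.0898 for Hsp90b1, 0.0674 for Calr and 0.0821 for Pdia6. Replicate numbers do not pair libraries, so this block leaves less information for the diet difference, and calls are lost more easily. With no filter beyond 1 count 1 of the 10 was called (Calr), against 2.95%. With the library labelled AL mouse 1 kept, 0 of the 10 were called by edgeR, against 1.60%, with Hsp90b1 at -0.16 (adjusted p = 0.145), Calr at -0.19 (adjusted p = 0.139) and Pdia6 at -0.16 (adjusted p = 0.24). Without AL mouse 2 and IF mouse 10, which leaves 6 AL and 7 IF cortices, 1 was called (Calr), against 2.69%. Without the 4 cortices with the highest Ttr (AL mice 2 and 4 and IF mice 11 and 14, chosen after the data were seen) 0 were called by edgeR, against 0.411%, with Hsp90b1 at -0.21 (adjusted p = 0.15), Calr at -0.28 (adjusted p = 0.0758) and Pdia6 at -0.23 (adjusted p = 0.174). Over all 9 alternatives the log2 fold change of Hsp90b1 ran from -0.21 to -0.16, that of Calr from -0.28 to -0.19 and that of Pdia6 from -0.23 to -0.16. IF mouse 14 had the lowest level of 8 of the 10 genes among the male IF cortices, and AL mouse 6 the lowest of 6 among the male AL cortices.

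The other 7 genes were not called in male cortex. Their medians in AL and IF were 291 and 267 CPM for Hspa5, 125 and 121 CPM for Xbp1, 43.5 and 36.03 CPM for Dnajb9 and 73.8 and 84.3 CPM for Herpud1. All 8 IF cortices were below the AL median for Dnajb9, and 7 of 8 were above it for Herpud1. Dnajb9 stood at -0.19 ± 0.06 (adjusted p = 0.0808) and Herpud1 at 0.18 ± 0.08 (adjusted p = 0.145). Sdf2l1 (medians 20.9 and 21.0 CPM), Creld2 (25.6 and 26.1 CPM) and Pdia4 (41.4 and 40.9 CPM) were nearly equal between diets, at -0.03 ± 0.12, 0.01 ± 0.10 and -0.09 ± 0.11. For Sdf2l1 the 95% interval of -0.29 to 0.22 leaves out the size of its fall in male liver. Of the cell markers in male cortex, 0 of the 5 neuronal markers were called by edgeR and 0 had an unadjusted p under 0.05, and the summed neuronal markers had medians of 8253 CPM in AL and 8210.2 CPM in IF. Of the plasma cell markers 1 of 4 tested was called (Ighm, at 0.61 ± 0.10), and of the clock genes 2 of 6 (Arntl and Dbp). The other plasma cell markers were scarce, and their medians were lower in IF. In AL and IF these were 0.998 and 0.558 CPM for Igkc and 0.910 and 0.728 CPM for Jchain. For Mzb1 they were 0.106 and 0.0301 CPM, and for Tnfrsf17 0.371 and 0.325 CPM. Ighm alone therefore does not stand for plasma cells here.

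In female cortex 0 of the 10 genes were called by edgeR, where 2 of 18403 genes were called (0.0109%). At an unadjusted p under 0.05 there were 4 of the 10 (Pdia4, Hspa5, Pdia6 and Xbp1), against 11.2% of all genes, and by DESeq2 there was 1 of the 10 (Pdia4), against 0.320% of all genes. No gene of the 10 had diet groups that did not overlap, which 0.0435% of all genes had. Pdia4 had 21.4, 24.8 and 28.7 CPM as its lowest, median and highest level in AL and 24.97, 31.3 and 34.6 CPM in IF. For Pdia4, Hspa5, Pdia6 and Creld2 all 8 female IF cortices were above the AL median, with 4 or 5 of them above every AL cortex. Pdia4 stood at 0.28 ± 0.06 (95% interval 0.15 to 0.42, adjusted p = 0.195), Hspa5 at 0.20 ± 0.05 (adjusted p = 0.258) and Pdia6 at 0.18 ± 0.05 (adjusted p = 0.278). Xbp1 was at 0.13 ± 0.06 (adjusted p = 0.438), and Creld2, at 0.12 ± 0.06 (adjusted p = 0.452), was not among the 4. The female minus male difference in response called 1 of the 10 genes in cortex, where 2.03% of 19547 genes were called. That gene was Pdia6, at 0.40 ± 0.08 (adjusted p = 0.00916). Calr (0.27 ± 0.08, adjusted p = 0.0534) and Hspa5 (0.38 ± 0.11, adjusted p = 0.0579) were not called, and Hsp90b1 stood at 0.11 ± 0.06 (adjusted p = 0.414).

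Whether the response of liver differs from that of the other tissues was tested with the mouse as a block. In male mice the liver response differed from the muscle response for 8 of the 10 genes, where 30.3% of 18222 genes were called, and from the cortex response for 9 of the 10, where 22.9% of 20730 genes were called. The liver minus muscle difference was -2.15 ± 0.28 for Sdf2l1 (adjusted p = 6.23e-06), -1.60 ± 0.13 for Pdia4, -0.93 ± 0.17 for Xbp1 and 1.29 ± 0.17 for Herpud1. Dnajb9 was called in neither comparison, at -0.61 ± 0.29 against muscle (adjusted p = 0.124) and 0.01 ± 0.23 against cortex, and Creld2 was not called against muscle (-0.77 ± 0.30, adjusted p = 0.059). In female mice 0 of the 10 were called by edgeR against muscle and 0 against cortex, as were 0% of all genes in each. At an unadjusted p under 0.05 there was 1 of the 10 against muscle (Dnajb9) beside 4.56% of all genes, and 2 against cortex (Dnajb9 and Herpud1) beside 7.97% of all genes. DESeq2 was not run for these differences.

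Between tissues, medians in CPM rank the same gene in the same units. These orders hold for raw totals, without the scaling for composition. In the fit of male liver with cortex the scaling factors ran from 0.69 to 1.325. Orders with gaps of that size or less may therefore depend on the scaling. In male AL mice the order was liver, cortex, muscle for Hspa5, Hsp90b1, Xbp1, Sdf2l1, Creld2, Calr and Pdia4. Liver and cortex overlapped in each of these but Hsp90b1 and Pdia4, and cortex was above muscle without overlap in all 7. Pdia4 spanned the widest range, with a liver median 14.8 times its muscle median, and Dnajb9 the narrowest, with a cortex median 1.58 times its muscle median and overlap between all neighbours. Herpud1 ran in the order liver, muscle, cortex in every group. In male IF mice cortex came before liver for Sdf2l1 (21.0 against 5.08 CPM) and Calr (390.3 against 195 CPM), without overlap, and for Hspa5 and Xbp1, with overlap. Pdia6 ran in the order cortex, liver, muscle under both diets, with cortex and liver overlapping in AL but not in IF (113 against 79.5 CPM). In female mice the liver stood first under both diets for Hspa5, Hsp90b1, Xbp1, Creld2, Calr, Pdia4 and Herpud1.

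Between genes, levels were compared per length, as CPM divided by the length of the gene model in kilobases (RPKM). In male AL livers the medians ran from Calr (185 RPKM) through Hsp90b1 (124), Hspa5 (101), Herpud1 (75.5), Xbp1 (55.4), Pdia4 (55.0), Creld2 (33.6), Pdia6 (32.4) and Sdf2l1 (28.3) to Dnajb9 (11.2), and each gene overlapped the next. In male IF livers Herpud1 came first at 245 RPKM with no overlap with Hsp90b1 (69.4), and Sdf2l1 came last at 4.59 RPKM with no overlap with Dnajb9 (11.3). In male AL muscles Herpud1 (56.1 RPKM) and Calr (52.5) led and overlapped, and Pdia4 (3.71) was last. In male AL cortices Calr was highest at 164 RPKM without overlap with Hspa5 (68.8), and Sdf2l1, Creld2, Pdia4 and Dnajb9 lay close together between 17.1 and 18.9 RPKM.

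How the 10 genes moved with each other across libraries of a tissue was read as well. Pearson's r of log2 CPM (with 2 added to each count) was taken for each of the 45 pairs after the diet means were removed, and it describes libraries that also share depth and composition. The median r was 0.64 in the 16 male livers, 0.48 in the 16 female livers, 0.35 in male and 0.30 in female muscle, 0.66 in the 15 male cortices and 0.29 in the 16 female cortices. Over every pair of the genes tested it was 0.06, 0.03, 0.03, 0.06, 0.01 and 0.04 in the same order. In male livers all 45 pairs were positive, against 57.7% of all pairs, as were all 45 in male cortices, against 51.1%, and 44 of 45 in female livers, against 53.3%. Positive pairs were fewer in male muscle (38 of 45, against 54.1%) and female muscle (37 of 45, against 57.0%). The lowest r there was -0.47 in males (Sdf2l1 with Herpud1) and -0.35 in females (Pdia6 with Herpud1). In male livers r ran from 0.07 for Calr with Herpud1 to 0.91 for Sdf2l1 with Creld2. Without mice 2 and 6, the AL livers with the highest and the lowest Hspa5, r with Hspa5 went from 0.49 to -0.05 for Herpud1, from 0.44 to 0.22 for Calr and from 0.71 to 0.38 for Xbp1, while the other 6 genes stood between 0.55 and 0.83. Leaving out the extremes of Hspa5 narrows its range, and leaving out other livers was not tried. In female cortices 31 of 45 were positive, against 54.3% of all pairs, from -0.56 for Hsp90b1 with Herpud1 to 0.92 for Hspa5 with Pdia4.

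Of all 16203 other genes tested in male livers, the 5 with the highest r to Hspa5 were named in the same way. They were Atp2a2 (the calcium pump of the ER, r = 0.94), Rpl21-ps15 (0.91), Edem1 (a lectin of ER-associated degradation, 0.89), Rps12-ps3 (0.89) and Sec11a (the catalytic subunit of signal peptidase, 0.88), over n = 16 livers and beside a median r of 0.12 over all genes. Spearman's rho was 0.89, 0.87, 0.81, 0.86 and 0.89 in the same order. Without mice 2 and 6 r was 0.86, 0.88, 0.72, 0.84 and 0.81. In the 16 female livers r was 0.44, 0.37, 0.32, 0.72 and 0.64. Atp2a2 also fell with IF in male livers, by 0.78 ± 0.13 (medians 158 and 106 CPM), and Edem1 fell by 0.37 ± 0.11, whereas Sec11a stood at -0.04 ± 0.11 (adjusted p = 0.786). Rpl21-ps15 and Rps12-ps3 went the other way from Hspa5. They rose by 0.84 ± 0.12 (adjusted p = 5.92e-06) and 0.93 ± 0.17 (adjusted p = 0.00014). Rpl21-ps15 and Rps12-ps3 are named as pseudogenes of ribosomal proteins, so their counts may include reads that fit the parent genes. With the diet means kept, 2 of the 5 (Atp2a2 and Edem1) were again among the 5 highest.

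The other genes of the pathway were read from lists by role, beside 44.6% of all genes tested called in male liver, 21.1% lower and 23.5% higher. Of the 6 UPR sensors and processing proteases, 3 were called in male liver, 2 lower and 1 higher, with a median of -0.34 beside 0.06 for all genes tested. Ern1, which encodes IRE1, had 28.9, 39.99 and 49.99 CPM as its lowest, median and highest level in AL and 9.66, 19.3 and 27.2 CPM in IF. Every IF liver was below every AL liver, and Ern1 fell by 1.18 ± 0.15 (adjusted p = 9.97e-07). Atf6b fell by 0.85 ± 0.19 and Atf6 rose by 0.62 ± 0.14. Eif2ak3, which encodes PERK, stood at -0.40 ± 0.20 (adjusted p = 0.112), and the proteases that cut ATF6, Mbtps1 and Mbtps2, at 0.04 ± 0.12 and -0.29 ± 0.18 (adjusted p = 0.797 and 0.19).

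Of the 13 other ER chaperones and co-chaperones, 8 were called in male liver, 5 lower and 3 higher, with a median of -0.24. Hyou1, the large Hsp110 partner of Hspa5, had medians of 96.5 CPM in AL and 29.3 CPM in IF and fell by 1.86 ± 0.21. Manf, a secreted factor that binds Hspa5, had medians of 136 and 42.9 CPM and fell by 1.99 ± 0.23, and Cnpy3, a partner of Hsp90b1 in the folding of Toll-like receptors, fell by 0.67 ± 0.10. Highest among those that rose were Canx (calnexin, the membrane-bound relative of Calr) by 0.78 ± 0.13, with medians of 69.6 and 144 CPM, Sil1 (the nucleotide exchange factor of Hspa5) by 0.51 ± 0.11 and Sdf2 (a relative of Sdf2l1) by 0.48 ± 0.11. Canx and Calr thus moved in opposite directions in the same livers.

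Of the 13 other disulphide and oxidative folding enzymes, 9 were called, 5 lower and 4 higher, with a median of -0.07. Pdia3, the isomerase that works with Calr and Canx, had medians of 375 CPM in AL and 131 CPM in IF and fell by 1.53 ± 0.14. Txndc11 fell by 0.73 ± 0.14 and Tmx3 by 0.70 ± 0.13, while Tmx1 rose by 0.65 ± 0.12, Erp29 by 0.59 ± 0.11 and Prdx4 by 0.59 ± 0.15.

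Of the 15 genes of ER-associated degradation, 11 were called, 7 lower and 4 higher, with a median of -0.22. Derl3 ran from 4.60 through 27.8 to 167 CPM in AL and from 0.67 through 1.14 to 1.99 CPM in IF. Its groups did not overlap, and it fell by 5.51 ± 0.76 (adjusted p = 3.2e-05). Syvn1, the HRD1 ligase that Herpud1 serves, had medians of 312 and 106 CPM and fell by 1.95 ± 0.35, and Edem3 fell by 1.01 ± 0.15. Rising beside Herpud1 were Ube2g2, a ubiquitin-conjugating enzyme (1.37 ± 0.10, medians 18.1 and 51.1 CPM), Erlec1 (1.05 ± 0.14) and Selenos (0.55 ± 0.13).

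The list of the translocon and of signal peptide processing holds 16 genes. Among them are Sec23b and Sec24d, which encode coat proteins of transport vesicles and belong to neither group. Of the 16, 8 were called, 6 lower and 2 higher, with a median of -0.13. Sec23b fell by 1.69 ± 0.13, and Ssr3 and Ssr1 of the translocon-associated complex fell by 1.24 ± 0.14 and 1.04 ± 0.11. Spcs1 of the signal peptidase rose by 2.18 ± 0.19, with medians of 9.18 CPM in AL and 50.2 CPM in IF and no overlap between the groups, and Sec61b rose by 0.37 ± 0.15.

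Of the 8 genes of the PERK-ATF4 arm, 6 were called, 5 higher and 1 lower, with a median of 1.05. Trib3 rose by 1.15 ± 0.16, Asns (asparagine synthetase, medians 1.21 and 4.08 CPM) by 1.44 ± 0.30 and Chac1 by 1.499 ± 0.43, while Atf4 itself fell by 0.65 ± 0.13. Of the 10 cytosolic and mitochondrial heat shock genes, 6 were called, all 6 higher, with a median of 0.71. Hsph1 rose by 1.01 ± 0.19 and Hspd1 by 0.90 ± 0.14, and Hspa1a by 1.81 ± 0.68 from levels near 0 (medians 0.15 and 0.70 CPM).

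**Figure D3:**
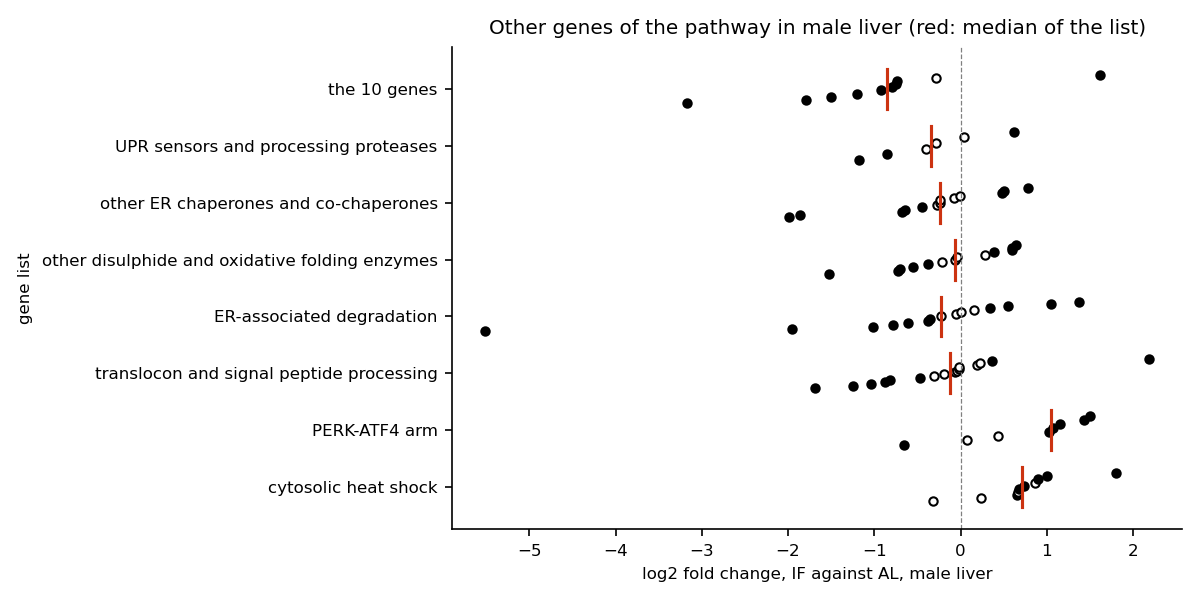
Log2 fold change of IF against AL in male liver for the 10 genes and for each gene tested in 7 lists of the pathway, filled where called and open where not, with a red line at the median of each list. List medians run from -0.86 for the 10 genes to 1.05 for the PERK-ATF4 arm, and Derl3 lies farthest out at -5.51.

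In female livers 0 genes of these 7 lists were called by edgeR. At an unadjusted p under 0.05 there were 2 of the 6 sensors and proteases, 3 of the 13 chaperones, 3 of the 13 oxidative folding enzymes, 3 of the 15 degradation genes, 1 of the 16 translocon genes, 0 of 7 PERK-ATF4 genes tested and 1 of 9 heat shock genes tested, against 5.77% of all genes. The female minus male difference in response was called for 23.7% of all genes and for 3 of 6 sensors and proteases, 8 of 13 chaperones, 8 of 13 oxidative folding enzymes, 10 of 15 degradation genes, 8 of 16 translocon genes, 4 of 8 PERK-ATF4 genes and 4 of 10 heat shock genes. The female minus male difference was called for Ern1 (1.49 ± 0.21), Hyou1 (2.41 ± 0.33), Manf (2.62 ± 0.36), Pdia3 (1.69 ± 0.22), Syvn1 (2.20 ± 0.43), Canx (-0.68 ± 0.23) and Spcs1 (-2.16 ± 0.37), among others. It was not called for Atf6 (adjusted p = 0.262), Mbtps1 (0.668), Mbtps2 (0.51), Sil1 (0.34), Erp29 (0.176), Selenos (0.0618), Sec61b (0.736), Asns (0.801), Chac1 (0.251) and Hspa1a (0.179). Derl3 had medians of 1.86 CPM in female AL livers and 2.93 CPM in female IF livers, both far below the male AL median. The female AL median lay inside the range of the male IF livers and the female IF median above it. The female minus male difference of Derl3 was 6.14 ± 0.79. Apart from the sensors and proteases, the genes named here were picked for large differences in male liver. This test uses those male livers again, so the sizes given may be too large.

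In male muscle, where 23.0% of all genes were called, the counts were 2 of 6 sensors and proteases, 4 of 13 chaperones, 1 of 13 oxidative folding enzymes, 2 of 14 degradation genes tested, 6 of 16 translocon genes, 2 of 8 PERK-ATF4 genes and 3 of 10 heat shock genes. Hyou1 and Manf fell by 0.43 ± 0.08 each, Asns rose by 1.80 ± 0.36 and Chac1 by 1.87 ± 0.49. Ern1 rose by 0.40 ± 0.12 in male muscle, where Xbp1 and Herpud1 also rose, and its female minus male difference there was -0.47 ± 0.15 (adjusted p = 0.0319). In male cortex, where 7.21% of all genes were called, the counts were 2 of 6 sensors and proteases, 1 of 13 chaperones (Canx, which fell by 0.18 ± 0.05), 2 of 13 oxidative folding enzymes (Pdia3 and Tmx3), 5 of 10 heat shock genes, all 5 lower, and by edgeR 0 of 15 degradation genes, 0 of 16 translocon genes and 0 of 8 PERK-ATF4 genes. Of those last lists 5, 2 and 3 genes had an unadjusted p under 0.05, against 23.8% of all genes. Pdia3 fell by 0.28 ± 0.06 in male cortex, beside Hsp90b1, Calr and Pdia6. As given above, calls in male cortex depend on the libraries, the filter and the model. Of all genes, 2.07% were called there with the replicate number, which does not pair libraries, as a block. Without the cortices with the highest Ttr, 0.411% were called. In female muscle and in female cortex 0 genes of the 7 lists were called by edgeR. The lists hold 81 genes in all, and 6 and 5 of those tested had an unadjusted p under 0.05, against 10.7% and 11.2% of all genes. DESeq2 counts were not made for the lists.

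The promoters were read because 8 of the 10 genes fell in male liver. All 10 had an entry in the RefSeq promoter table, whose windows span 250 bases before to 50 bases after the start of each gene. This start is that of RefSeq. It lies inside the gene model of the authors by 120 bases in Hspa5, 65 in Hsp90b1, 258 in Dnajb9, 44 in Pdia6 and 3 in Calr, before it by 82 bases in Pdia4, 18 in Xbp1 and 9 in Herpud1, and at its first base in Sdf2l1 and Creld2. The table is built on GRCm38.p6, and the positions printed here were found by exact match of each window to GRCm39. The motif searched for, on either strand, was the ER stress element, CCAAT followed by 9 bases of any kind and CCACG, and its relative ERSE-II, ATTGG followed by 1 base and CCACG. Both were picked as known elements of ER stress genes such as these. Their shares among the 10 therefore describe the list and are not a test. The ER stress element was present in 5 of the 10 windows (Hspa5, Hsp90b1, Calr, Pdia6 and Creld2) and in 39 of all 32851 windows (0.119%). ERSE-II was present in 1 of the 10 (Herpud1) and in 12 of all windows (0.0365%). Neither was found in the windows of Dnajb9, Pdia4, Sdf2l1 and Xbp1. Of these genes, Pdia4, Sdf2l1 and Xbp1 were called lower in male liver and Dnajb9 was not called. The window of Dnajb9 lies wholly inside the gene model of the authors, so the bases before that start were not searched. The shorter core ACGTG was in 5 of the 10 windows and in 19.6% of all windows. A match is a run of letters and does not show that a factor binds there. The part of these motifs in the response to diet was not tested.

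Shown here are the 250 bases upstream of the start, read 5′ to 3′ on the strand of the gene with each match in capitals, for the general chaperones Hspa5, Hsp90b1 and Calr, which fell in male liver, and for Herpud1, which rose. A match that reads CGTGG at its left end lies on the opposite strand. The stretches are chr2:34661852-34662101 on the plus strand for Hspa5, chr10:86541309-86541558 on the minus strand for Hsp90b1, chr8:85573561-85573810 on the minus strand for Calr and chr8:95112807-95113056 on the plus strand for Herpud1, all in GRCm39. Hsp90b1 holds 2 matches, in opposite orientations.
Hspa5: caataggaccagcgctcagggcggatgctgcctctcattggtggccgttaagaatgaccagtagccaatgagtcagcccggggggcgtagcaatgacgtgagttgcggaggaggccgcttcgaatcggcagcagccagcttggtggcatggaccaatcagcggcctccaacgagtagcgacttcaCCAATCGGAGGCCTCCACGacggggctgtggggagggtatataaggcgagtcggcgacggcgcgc
Hsp90b1: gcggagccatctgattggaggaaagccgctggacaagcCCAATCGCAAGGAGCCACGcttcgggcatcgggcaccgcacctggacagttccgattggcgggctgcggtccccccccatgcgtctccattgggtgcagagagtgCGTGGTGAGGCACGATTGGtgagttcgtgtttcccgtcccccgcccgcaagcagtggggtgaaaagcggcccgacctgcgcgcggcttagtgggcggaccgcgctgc
Calr: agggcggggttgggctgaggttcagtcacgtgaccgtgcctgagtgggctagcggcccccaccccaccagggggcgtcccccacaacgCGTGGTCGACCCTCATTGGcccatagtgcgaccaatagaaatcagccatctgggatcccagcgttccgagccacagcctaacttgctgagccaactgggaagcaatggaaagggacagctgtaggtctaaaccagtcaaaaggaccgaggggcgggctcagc
Herpud1: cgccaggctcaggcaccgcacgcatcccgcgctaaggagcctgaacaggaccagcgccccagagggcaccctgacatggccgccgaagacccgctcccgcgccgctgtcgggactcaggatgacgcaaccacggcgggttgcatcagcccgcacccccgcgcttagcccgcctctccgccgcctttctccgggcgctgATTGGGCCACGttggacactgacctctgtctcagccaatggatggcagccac

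Positions are counted from the RefSeq start. The match of Hspa5 lies 65 to 47 bases before it, which is inside the gene model of the authors, and that of Herpud1 52 to 42 bases before its own. Calr has its match at 162 to 144 bases, and Hsp90b1 has its matches at 212 to 194 and 107 to 89 bases. The shorter stretches of the folding enzymes Pdia6 and Creld2 are given as the 19 bases of the match alone, at 98 to 80 bases before the start of Pdia6 and at 126 to 108 bases, on the opposite strand, before that of Creld2.
Pdia6: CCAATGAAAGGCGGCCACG
Creld2: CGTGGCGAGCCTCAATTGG

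Of the 81 genes in the other lists, 62 had a window. The ER stress element was found in the windows of Canx, Dnajc3, Ero1b, Derl3 and Syvn1, and ERSE-II in that of Dnajb11. Of these 6 genes, Canx rose in male liver, Derl3, Syvn1 and Dnajb11 fell, and Dnajc3 and Ero1b were not called.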

How the data were processed

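The values analysed are the deposited counts of paired-end reads per gene in 95 libraries of liver, muscle and cerebral cortex. The authors aligned poly-A selected, directional libraries with Hisat2 version 2.0.5 to GRCm39 and counted with featureCounts version 1.5.0-p3, for which the strand setting is not stated. The gene length used for RPKM is the deposited length of the gene model in bases. Totals ran from 26097314 to 49838004 counted reads. CPM used raw totals. Diet differences were fitted in each tissue and sex with edgeR 4.0.16 (quasi-likelihood, robust, TMM scaling, default filterByExpr with a minimum count of 10) in R 4.3.3 with limma 3.58.1, and p was adjusted by Benjamini-Hochberg over all genes tested. Differences between sexes used an interaction term, and differences between tissues a block for the mouse. The pipeline was tested on simulated data, where it did not at first meet its bar for recovery. The bar and the simulated dispersion were changed after that was seen. Recovery was lower at the larger dispersion, and in a few of the runs false calls exceeded the nominal share. Tables used Python 3.11.15, numpy 2.4.6, pandas 2.3.3, scipy 1.17.1 and matplotlib 3.10.9.

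Alternatives were RLE size factors, library totals alone, DESeq2 1.42.0, other filters on low counts, the replicate number as a block, an unadjusted p and fewer mice. Those that leave out named libraries for their markers or levels were chosen after seeing the data. Named genes are the 10 genes, every UPR sensor and processing protease, up to 3 genes in each direction with the largest difference among those called in male liver in each other list, the marker and clock genes, and the 5 genes most like Hspa5. The 10 genes and the lists were chosen with earlier results of these data known. Protein sequences were not analysed here.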

Additional observations from a re-analysis of the deposited data

Results flagged for a closer look

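In 6 of 120 groups of libraries the highest or lowest CPM of a gene stood apart from the rest of its group by Dixon's test, and chance alone gives about 1 in 20 groups. Xbp1 was at 352 CPM in the liver of female IF mouse 37 (next 241 CPM), at 57.9 CPM in the muscle of male AL mouse 8 (next 50.8 CPM) and at 68.1 CPM in the muscle of male IF mouse 12 (next 60.2 CPM). Dnajb9 was at 47.5 CPM in the liver of male IF mouse 10 (next 33.8 CPM). Calr was at 421 CPM in the cortex of female IF mouse 36 (next 367 CPM). That library also had the highest Ttr of all cortices, 4269 CPM beside a median of 8.68 CPM in female IF cortices, and the cause was not tested. Herpud1 was at 365 CPM in the liver of male AL mouse 2 (next 194 CPM).

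The response to diet differed between the sexes, by the interaction term, for 9 of the 10 genes in liver, against 23.7% of all genes. As the female minus the male log2 fold change, it was 0.94 for Hspa5, 1.06 for Hsp90b1, 1.02 for Xbp1, 3.06 for Sdf2l1, 1.64 for Creld2, 1.59 for Calr, 1.90 for Pdia4, 0.96 for Pdia6 and -1.19 for Herpud1. In muscle it differed for Sdf2l1 (0.85) and Calr (0.22, adjusted p = 0.0449), which is 2 of the 10 against 14.2% of all genes, and in cortex for Pdia6 (0.40), which is 1 of the 10 against 2.03%. The call of Calr in male muscle itself is lost with library totals in place of the composition scaling. Sex and cohort cannot be told apart.

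The male response in liver also differed from that in the other tissues of the same mice. As the liver minus the muscle log2 fold change, it was -0.64 for Hspa5, -0.85 for Hsp90b1, -0.93 for Xbp1, -2.15 for Sdf2l1, -1.32 for Calr, -1.60 for Pdia4, -0.69 for Pdia6 and 1.29 for Herpud1. Against cortex it was -0.55 for Hspa5, -0.76 for Hsp90b1, -0.62 for Xbp1, -3.00 for Sdf2l1, -1.04 for Creld2, -1.31 for Calr, -1.75 for Pdia4, -0.46 for Pdia6 and 1.42 for Herpud1. These are 8 of the 10 genes against muscle, where 30.3% of all genes were called, and 9 of the 10 against cortex, where 22.9% were. The causes of these differences were not tested.

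The library labelled cortex of male AL mouse 1, which no comparison uses unless named, held 10219 counts of Xist, where the other 47 male libraries held at most 25.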

How the results depend on the processing

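In male liver the 9 genes called by edgeR were called under each alternative run there. Over all tissues and both sexes, 461 of 500 log2 fold changes of the 10 genes under an alternative kept their direction and their side of the threshold, 14 lost the call, 9 gained one and 16 changed sign, of which 0 were called. This tally includes the unadjusted p, which leaves each log2 fold change as it was and can only add calls. In male muscle Calr lost its call with library totals only. Where a count changes below, the cause was not tested unless it is named.

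An unadjusted p under 0.05, a looser threshold, gave 919 genes in female liver with 2 of the 10, 5309 in male muscle, 1644 in female muscle, 4400 in male cortex with 5 of the 10 and 2069 in female cortex with 4 of the 10. DESeq2 called 4 genes in female liver, 82 in female muscle, 2187 in male cortex and 61 in female cortex with 1 of the 10. With no filter beyond 1 count there were 5 genes in female muscle, 220 for the difference between sexes in cortex and 1 of the 10 in male cortex. In male cortex, where 1332 genes were called, there were 498 without AL mouse 2 and IF mouse 10 (1 of the 10), 294 with AL mouse 1 kept (0 of the 10 by edgeR), 382 with the replicate number as a block (0 of the 10), and 76, of which 74 were among the 1332, without AL mice 2 and 4 and IF mice 11 and 14 (0 of the 10). The last of these, chosen after seeing the data, also has fewer libraries. In female cortex edgeR called 0 genes with library totals only and 0 with the block. Replicate numbers do not pair libraries: r between AL and IF libraries of the same number ran from -0.26 to 0.46.

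Signs changed only for values near 0. With library totals only the log2 fold change was 0.044 for Pdia6 in male muscle, -0.028 for Hsp90b1, -0.0085 for Dnajb9 and -0.070 for Pdia6 in female muscle, -0.011 for Creld2 in male cortex and 0.0047 for Herpud1 in female cortex. Calr in female muscle was 0.0030 by DESeq2, 0.0020 with RLE size factors and 0.00093 with no filter. With at least 10 counts in every library Pdia6 in female muscle was -0.0011 and Herpud1 in female cortex 0.00018, and with the block Pdia6 in female muscle was -0.00093. Sdf2l1 in male cortex was 0.021 with AL mouse 1 kept. Creld2 in male cortex was -0.023 without AL mouse 2 and IF mouse 10, -0.036 with the block and -0.029 without AL mice 2 and 4 and IF mice 11 and 14. With the diet means kept, 2 of the 5 genes most like Hspa5 were shared, r was -0.23 for Rpl21-ps15 and -0.090 for Rps12-ps3, both of which rose in male liver while Hspa5 fell, and 0.60 for Sec11a.

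Library totals only moved the median of all genes from -0.04 to -0.21 for the difference between sexes in liver, from -0.01 to -0.17 for that in muscle and from 0.01 to 0.14 for liver against cortex in males. The genes called higher became 4402 of 7096 in male liver (3815 of 7234 with scaling), 2553 of 3626 in male muscle (1726 of 3463), 1481 of 4252 for the sexes in liver (2265 of 4184), 522 of 3085 for the sexes in muscle (1207 of 2314) and 3134 of 4756 for liver against cortex in males (2388 of 4739). Limits are the 8 mice in each group, the male AL cortex group of 7, whole tissue, the unknown age and schedule of the females, and genes that overlap others on the same strand (Hsp90b1 and Pdia4).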
